A study of Mus musculus with 6 samples.

Results

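The respiratory chain and the ATP synthase of the mouse epidermis were measured as 84 genes, chosen by name from a total of 11354 named genes that the arrays detected. A gene was a member when its symbol in the platform annotation began with Nduf, Uqcr, Sdh followed by a to d, Cox4 to Cox8, or Atp5, and when at least 1 of its probes was detected on 3 or more of the 6 arrays. A probe was detected where its score, taken to be the share of negative control beads that it exceeded, was above 0.95. The members were 33 subunits of complex I, 3 of complex II, 6 of complex III, 15 of complex IV, 16 of complex V and 11 other genes. The 11 comprised 10 assembly factors of complexes I and II and Ndufs5-ps, a transcribed pseudogene of a complex I subunit gene. Cox7a2l was counted in complex IV by its symbol. A further 7 symbols matched but had no probe that passed the detection rule, among them Ndufs1, Sdha and Uqcrfs1, core subunits of complexes I, II and III, and their levels are not analysed here.

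RNA came from epidermal peels of back skin of C57BL6 mouse embryos at E17.5, late in gestation, each peel freed from the dermis in 5 mM EDTA for 1 hour at 37 °C. Of the 6 Illumina bead arrays, 3 were wild type and 3 from mutants labelled Harlequin Ichthyosis, an inherited disease of the skin barrier, which the study calls a model of it. The labels call the samples of a group biological replicates. They do not name the mutated gene or state its zygosity, the sex of the embryos, littermates or pooling, so the mutant group is described here only as the labels give it. The sample titles carry a prefix, bo20 or bo12, whose meaning the labels do not give. The bo20 prefix is shared by wild-type arrays 1 and 2 and mutant arrays 1 and 2, and bo12 by wild-type array 3 and mutant array 3.

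Complexes I to IV pass electrons from NADH and succinate to oxygen and pump protons out of the mitochondrial matrix at complexes I, III and IV, and complex V, the ATP synthase, uses the returning protons to make ATP. Most subunits are encoded in the nucleus and a small core by mitochondrial DNA, so the complexes are built from transcripts of both genomes. In epidermis, mitochondria are abundant in the living layers and are cleared as keratinocytes cornify, and mitochondrial respiration and reactive oxygen species are known to take part in keratinocyte differentiation.

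Of the 6 arrays, wild-type array 3 was unlike the rest. Its log2 intensities correlated with theirs at r = 0.836 to 0.891, while the other 5 correlated among themselves at 0.965 to 0.990. Mean raw intensity per array ranged from 260 to 463, and between 17159 and 18422 of 45281 probes were detected per array, with the lowest of each in wild-type array 3. The difference moved by over 0.2 log2 units in 43 of the 84 members when that array was left out, and where the difference of such a gene is given below, so is the value without it. The 6 keratinocyte markers, Krt5, Krt14, Krt1, Krt10, Lor and Trp63, averaged 13.3 to 13.5 on every array, close to the brightest value of 14.6, as the label of the tissue implies. Transcripts of 11 skeletal muscle markers averaged 11.1 to 13.1, and those of 7 dermal fibroblast markers 9.99 to 12.01, so these peels were not made of keratinocytes alone. In RNA from bulk tissue, fewer cells of a type and less RNA per cell cannot be told apart.

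Promoter stretches of 4 members are given because they carry the palindromic motif bound by NRF1, a transcription factor known for its sites in respiratory chain genes. RefSeq (GRCm38.p6) promoter windows, 250 bases before to 50 after a transcript's start, were found for 72 of the 84 members, as 77 windows. The NRF1 motif, searched on both strands as GCGCA and GCGC with any 1 base between them, occurred in 20 of the 77 windows, or 26.0%, against 4.60% of all 32851 windows. A motif of the ETS family factor GABP, CCGGAAGT, occurred in 4 member windows, or 5.19%, against 3.89% of all. The YY1 motif AAGATGGC occurred in 11, or 14.3%, against 2.75%, and the motif of estrogen-related receptors, TCAAGGTCA, in 2, or 2.60%, against 0.423%. Matches of different motifs were counted separately even where they overlapped. At least 1 of them was present in 42.9% of member windows and 10.9% of all windows. For each complex with a match lying wholly upstream of the start, 200 bases directly upstream are printed 5′ to 3′, with NRF1 motif matches in capitals; complex III had no such match.
Ndufb4 (complex I, chr16:37654369-37654568, minus strand): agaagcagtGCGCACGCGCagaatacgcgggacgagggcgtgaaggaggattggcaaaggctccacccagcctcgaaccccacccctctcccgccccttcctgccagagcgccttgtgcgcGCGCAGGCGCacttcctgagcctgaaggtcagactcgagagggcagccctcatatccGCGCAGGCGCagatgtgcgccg
Sdhd (complex II, chr9:50603850-50604049, minus strand): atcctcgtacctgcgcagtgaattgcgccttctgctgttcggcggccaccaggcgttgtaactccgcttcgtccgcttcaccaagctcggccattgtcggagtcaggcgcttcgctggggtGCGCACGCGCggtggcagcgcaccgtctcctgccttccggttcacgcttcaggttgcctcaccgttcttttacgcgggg
Cox6a1 (complex IV, chr5:115348959-115349158, minus strand): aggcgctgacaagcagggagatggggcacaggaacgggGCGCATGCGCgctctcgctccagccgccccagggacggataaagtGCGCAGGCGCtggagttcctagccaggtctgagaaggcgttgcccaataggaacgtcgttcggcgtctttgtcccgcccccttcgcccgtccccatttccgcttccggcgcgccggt
Atp5c1 (complex V, chr2:10080433-10080632, minus strand): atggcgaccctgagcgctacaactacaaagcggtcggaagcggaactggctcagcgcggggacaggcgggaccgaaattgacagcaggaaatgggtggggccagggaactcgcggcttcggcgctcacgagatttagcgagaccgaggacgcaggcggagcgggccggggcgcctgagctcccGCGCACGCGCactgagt
Ndufb4 carried 3 matches in this stretch, Cox6a1 carried 2, and Sdhd and Atp5c1 carried 1 each. A match describes letters in a window and shows nothing about binding in these peels.

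With all 6 arrays, no difference in transcript level between mutant and wild-type epidermis was detected for any of the 84 members. A difference that was not detected is not thereby shown to be absent. Values are log2 intensities after background correction and quantile normalization, and a difference of 1 on this scale is 2-fold. Where 3 values are given for a group, they follow arrays 1 to 3. By limma's moderated test over all 18358 detected probes, with Benjamini-Hochberg adjustment, 0 members and 0 probes in all (0%) had an adjusted p under 0.05, and the smallest adjusted p of a member was 0.791. At an unadjusted p under 0.05 stood 0 of 84 members, against 720 of 11354 genes (6.34%). By each gene's brightest probe, the 3 mutant values lay wholly above or wholly below the 3 wild-type values in 0 of 84 members, against 1613 of all genes (14.2%), of which 5.96% of genes were higher and 8.24% lower. The members split into 41 differences above 0 and 43 below, with a median of -0.02, and the median over all genes was -0.06. The interquartile range of the members ran from -0.17 to 0.29.

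Arrays with the same replicate number were also set against each other. Their deviations from the group means correlated in all 3 pairs, which does not establish that the numbers pair the arrays. Deviations within a group sum to 0 and the third pair shares the bo12 prefix, so the 3 correlations are not independent. Mutant array 1 correlated with wild-type array 1 at r = 0.970 and with wild-type array 2 at r = 0.983. The mutant was lower in all 3 pairs in 16 members (19.0%), against 23.9% of all genes, and higher in all 3 in 9 members (10.7%), against 15% of all genes. The 16 included Ndufa2, Ndufa3, Ndufb3, Uqcrb, Cox6b2 and Atp5g2. With the pairs as a block, limma called 0 members, and the smallest adjusted p of a member was 0.535. Cox6b2 was the 1 member with an unadjusted p under 0.05 in that fit, against 9.43% of all genes.

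The precision of these differences was uneven. The 95% confidence interval lay inside a 2-fold change in either direction for 46 of 84 members (54.8%), much as for all genes (56.0%). Without wild-type array 3 it did so for 73 members (86.9%, against 81.7% of all genes), and the median difference was -0.04, with 34 members above 0 and 50 below. In that comparison of 2 wild-type with 3 mutant arrays, 49 of 17808 probes (0.275%) passed the adjusted threshold and 0 members did. Ndufb10, an accessory subunit in the membrane arm of complex I, was the 1 member with an unadjusted p under 0.05 there, against 9.41% of all genes. Its difference without wild-type array 3 was -0.56, with a 95% interval of -0.999 to -0.13 and limma adjusted p = 0.389. Intervals that reach past a 2-fold change do not exclude a change of that size.

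**Figure D1:**
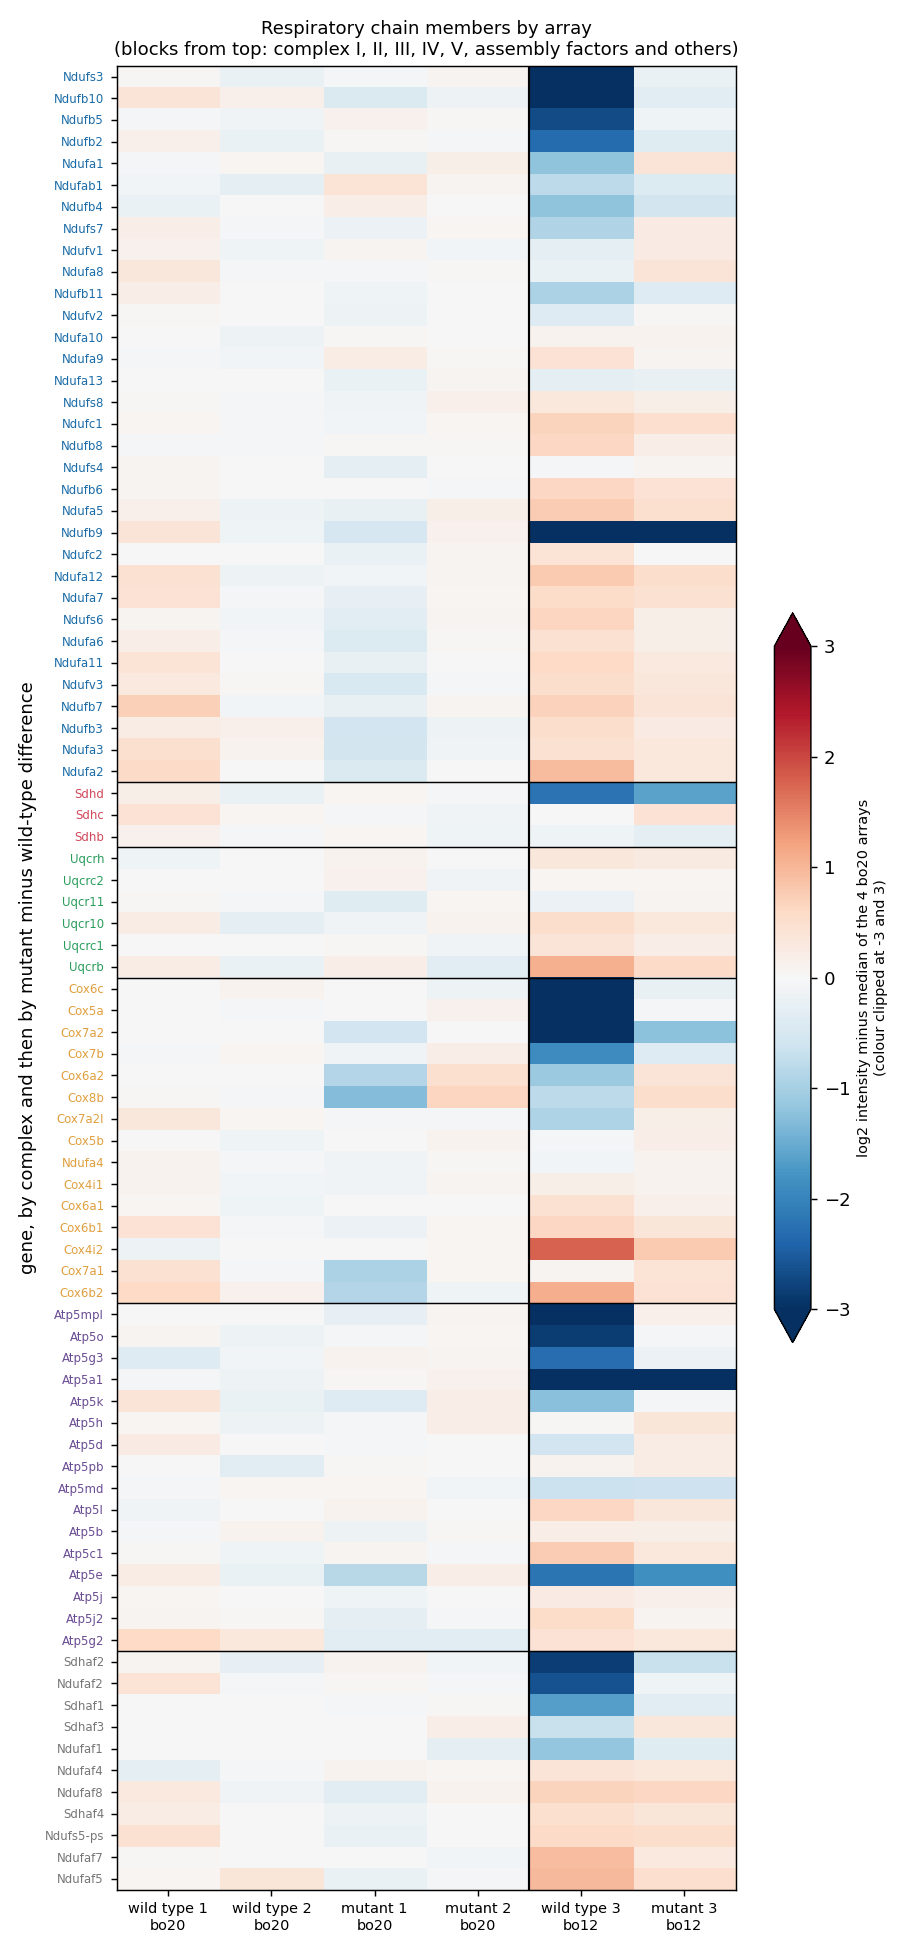
Log2 intensity of each of the 84 member genes (rows, grouped by complex) on the 6 arrays (columns), minus the gene's median over the 4 bo20 arrays; colour gives the difference in log2 units. Most rows are near 0 on the bo20 arrays, and 16 members lie over 2 log2 units below the other arrays in wild-type array 3.

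The medians over the subunits of the 5 complexes lay between -0.07 and 0.14. Over all 6 arrays the median log2 difference was -0.06 for complex I, -0.07 for complex II, -0.03 for complex III, 0.14 for complex IV and 0.08 for complex V, and 0.14 for the assembly factors and the pseudogene. Without wild-type array 3 these medians became -0.03, -0.15, 0.09, -0.04, -0.03 and -0.11 in the same order, so those of complexes III, IV and V and of the assembly factors changed sign. The pooled SD between arrays of a group, in a complex's median level, was 0.15 to 0.20, as large as or larger than the size of each of the 5 complex differences. This SD describes single arrays and is not the standard error of a difference between groups, so the comparison is no test.

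**Figure D2:**
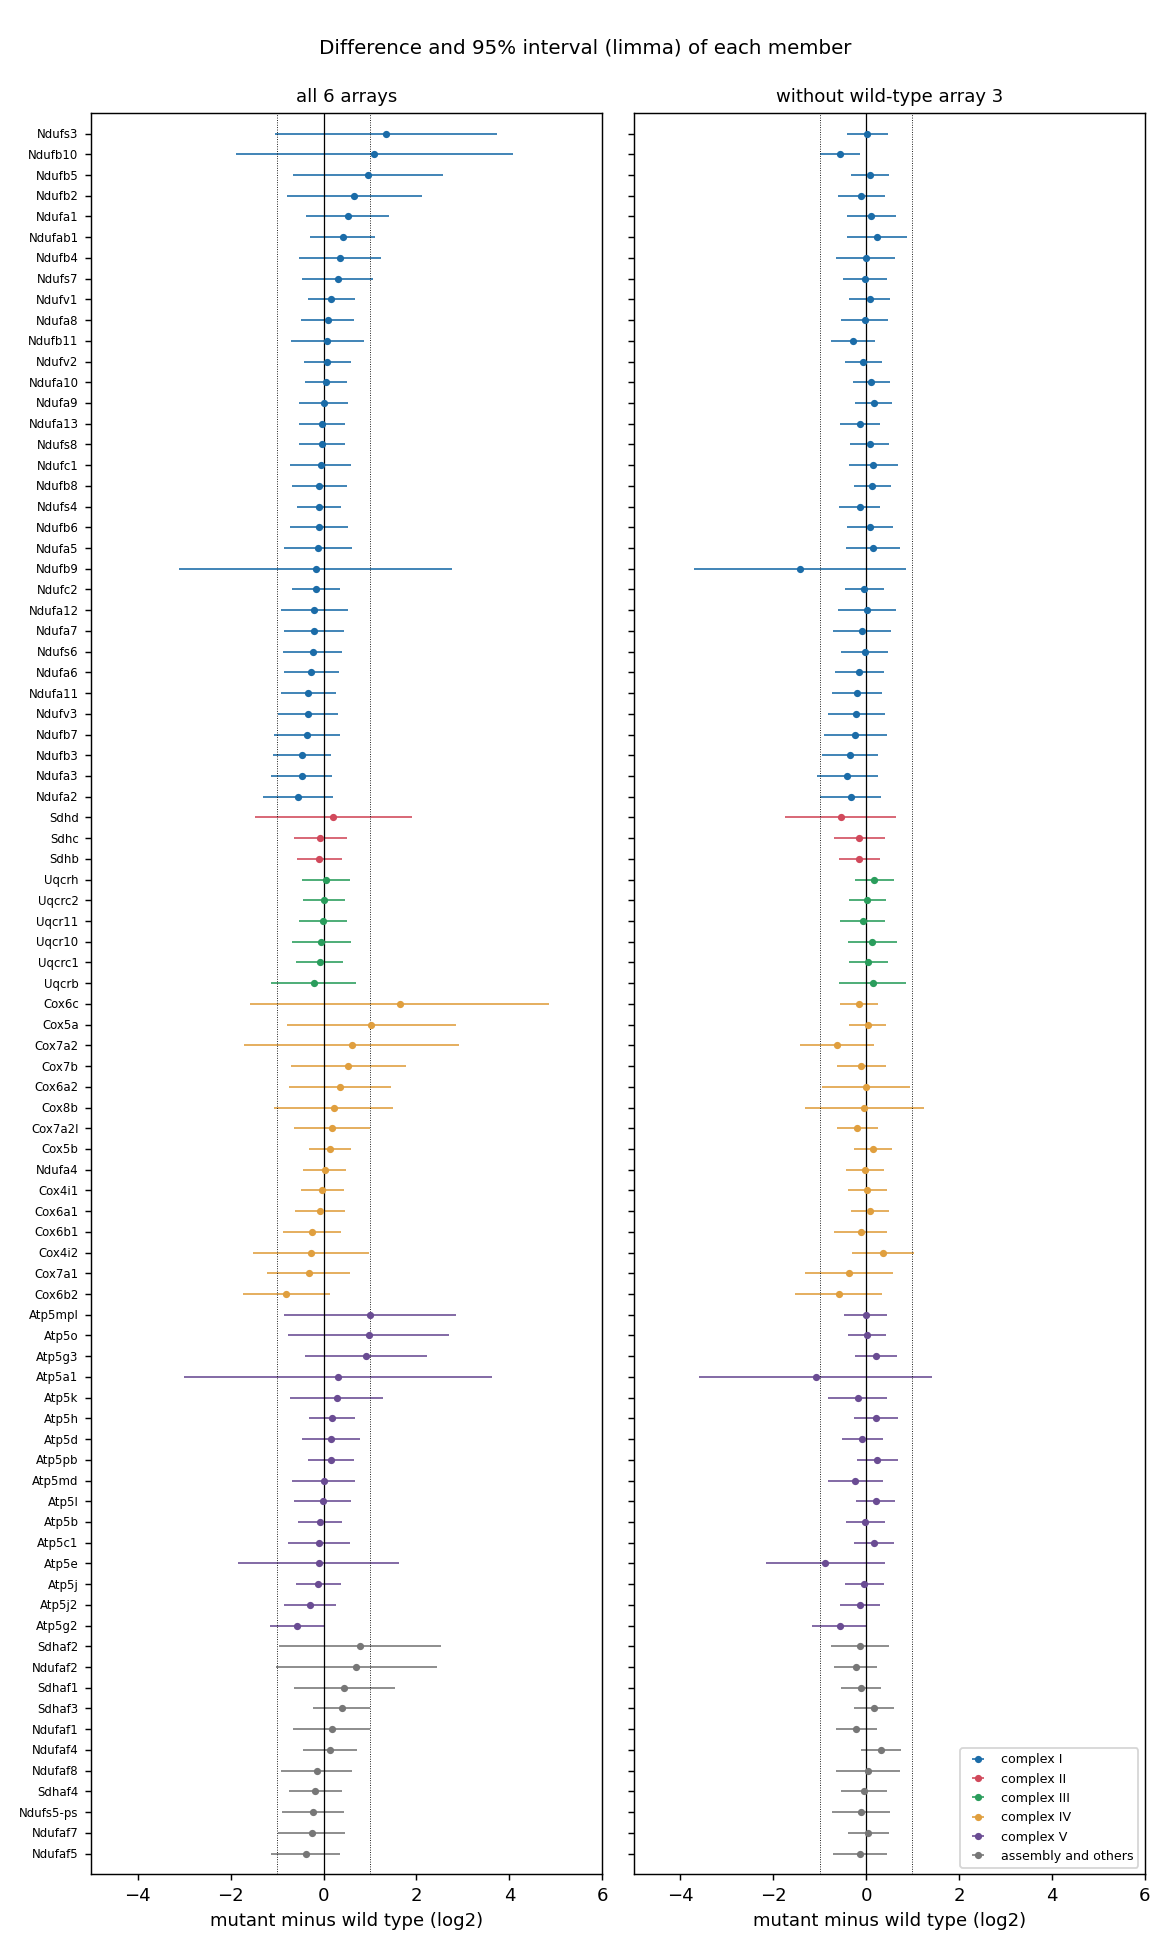
Mutant minus wild-type log2 difference of each member (points) with its 95% confidence interval (bars), by complex, with every array and with wild-type array 3 left out. Of the 84 intervals, 46 lie inside a 2-fold change with every array and 73 when wild-type array 3 is left out.

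Complex I, NADH dehydrogenase, takes electrons from NADH through a flavin and a chain of iron-sulfur clusters to ubiquinone. None of its 33 measured subunits passed the test, with 14 differences above 0 and 19 below. Ndufv1 carries the flavin that binds NADH, and stood at 12.36, 12.11 and 11.96 across wild type, against 12.31, 12.16 and 12.48 across the mutants. The groups overlapped and the difference was 0.17 (SE 0.21). Ndufv2, its iron-sulfur partner, measured 12.03, 12.02 and 11.61 across wild type, against 11.85, 11.99 and 12.05 across the mutants, with a difference of 0.08 (SE 0.21). Ndufv1 and Ndufv2, which are part of the NADH-binding module and not the whole of it, had overlapping groups and varied little over the 6 arrays.

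Ndufs7 and Ndufs8 hold the iron-sulfur clusters that hand electrons on to ubiquinone. Ndufs8 stood at 11.36, 11.27 and 11.62 across wild type, against 11.22, 11.46 and 11.48 across the mutants, and its difference was -0.03 (SE 0.21). Ndufs7 stood at 11.74, 11.47 and 10.63 across wild type, against 11.37, 11.60 and 11.79 across the mutants, and its difference was 0.30 (SE 0.32) over all 6 arrays and -0.02 without wild-type array 3. In both genes the groups overlapped. Ndufs3, the core subunit beside them, was level on 5 arrays and low on 1, with 11.48, 11.24 and 7.40 across wild type, against 11.39, 11.53 and 11.23 across the mutants. Its difference was 1.34 (SE 1.01), the most positive of complex I, with limma adjusted p = 0.791, and 0.02 without wild-type array 3.

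The other positive extremes of complex I were also low in wild-type array 3. Ndufb10 stood at 9.99, 9.76 and 4.90 across wild type, against 9.17, 9.46 and 9.27 across the mutants, and wild-type array 3 did not detect it. Its difference was 1.09 (SE 1.26) over all 6 arrays and had the opposite sign without that array. Ndufb5, another accessory subunit of the membrane arm, stood at 8.54, 8.46 and 5.89 across wild type, against 8.70, 8.60 and 8.45 across the mutants, and its difference fell from 0.96 to 0.08 when that array was left out. Without wild-type array 3, the complex I differences lay between -1.43 and 0.24.

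The negative extremes of complex I were small accessory subunits whose arrays were not split in this way. Ndufa2, which has a thioredoxin-like fold and lies in the NADH-binding module, stood at 12.59, 12.02 and 12.96 across wild type, against 11.59, 12.01 and 12.33 across the mutants. Its difference was -0.55 (SE 0.32), with a 95% interval of -1.31 to 0.20 and limma adjusted p = 0.791, and -0.33 without wild-type array 3. Ndufa3, of the membrane arm, stood at 12.51, 12.14 and 12.50 across wild type, against 11.48, 11.93 and 12.34 across the mutants, and its difference was -0.47 (SE 0.28). Ndufb3, also of the membrane arm, stood at 10.82, 10.75 and 11.13 across wild type, against 10.03, 10.44 and 10.84 across the mutants, and its difference was -0.46 (SE 0.27). In all 3 genes mutant array 1 was the lowest of the 6 and mutant array 3 lay within the wild-type range.

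Complex II, succinate dehydrogenase, feeds electrons from the citric acid cycle into the chain, and 3 of its subunits were measured. Sdhb, which carries the iron-sulfur clusters, stood at 10.05, 9.86 and 9.79 across wild type, against 9.99, 9.80 and 9.63 across the mutants, with a difference of -0.09 (SE 0.21). Sdhc, 1 of the pair of membrane anchors, stood at 11.37, 11.004 and 10.95 across wild type, against 10.89, 10.85 and 11.38 across the mutants, with a difference of -0.07 (SE 0.24). In both, the groups overlapped and the 6 arrays spanned at most 0.527 log2 units. A dimmer probe of Sdhb, ILMN_2769064, went the other way, with 9.38, 9.50 and 9.09 across wild type, against 9.79, 9.69 and 9.64 across the mutants, every mutant array above every wild-type array. Its difference was 0.38 (SE 0.21), with limma adjusted p = 0.791, and 0.27 without wild-type array 3, so the direction for Sdhb depends on the probe. Of all 111 detected member probes, 2 separated the groups, this one and ILMN_2888713 of Cox7a2l. By their brightest probe, 14.2% of all genes separated the groups, so separation was not unusual on these arrays. Sdhd, the other anchor, was low on both bo12 arrays, at 6.85, 6.49 and 4.46 across wild type, against 6.74, 6.62 and 5.06 across the mutants. It was detected on 5 of the 6 arrays. Its difference was 0.21 (SE 0.71), and -0.55 without wild-type array 3.

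Complex III, the cytochrome bc1 complex, passes electrons from ubiquinol to cytochrome c, and its 6 measured subunits had the smallest median range over the 6 arrays of the 5 complexes, 0.474 log2 units. Uqcrc2, a core subunit of the matrix side, stood at 11.86, 11.87 and 11.91 across wild type, against 11.99, 11.76 and 11.92 across the mutants, and its difference was 0.01 (SE 0.19) with a 95% interval of -0.44 to 0.46. Uqcrc1, its partner, stood at 11.57, 11.55 and 11.95 across wild type, against 11.60, 11.46 and 11.75 across the mutants, with a difference of -0.09 (SE 0.22). Neither core subunit separated the groups.

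The small subunits of complex III showed the same overlap. Uqcrh, the hinge protein near cytochrome c1, measured 13.11, 13.23 and 13.56 across wild type, against 13.33, 13.22 and 13.50 across the mutants, with a difference of 0.05 (SE 0.22). Uqcr10 measured 13.38, 12.89 and 13.69 across wild type, against 13.06, 13.27 and 13.49 across the mutants, with a difference of -0.05 (SE 0.27), and Uqcr11 differed by -0.01 (SE 0.22). Uqcrb, which lies at the ubiquinone-binding side, measured 5.93, 5.50 and 6.77 across wild type, against 5.91, 5.37 and 6.28 across the mutants, with a difference of -0.21 (SE 0.39) and wild-type array 3 the highest, and 0.14 without that array. No complex III subunit ranged over 2 log2 units across the 6 arrays, whereas 20.2% of all members and 11.9% of all genes did.

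Complex IV, cytochrome c oxidase, reduces oxygen, and its nuclear subunits include forms made in most tissues and forms typical of a tissue. Of its 15 measured members, 9 differences were above 0 and 6 below, and 0 passed the test. Cox4i1, the general form of subunit IV, stood at 13.19, 12.99 and 13.25 across wild type, against 12.99, 13.17 and 13.19 across the mutants, with a difference of -0.03 (SE 0.20). Cox5b stood at 13.16, 13.03 and 13.12 across wild type, against 13.15, 13.25 and 13.35 across the mutants, with a difference of 0.14 (SE 0.19), and Ndufa4, first described in complex I and now counted in complex IV, at 12.73, 12.60 and 12.56 across wild type, against 12.54, 12.67 and 12.74 across the mutants, with a difference of 0.02 (SE 0.19). These 3 genes were nearly flat across both groups.

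Cox6c, Cox5a and Cox7a2 were the positive extremes of complex IV, and each had its lowest value in wild-type array 3. Cox6c stood at 11.87, 11.999 and 6.55 across wild type, against 11.91, 11.75 and 11.68 across the mutants, and its difference was 1.64 (SE 1.36), the most positive of all 84 members, with limma adjusted p = 0.791. Without wild-type array 3 it was -0.15, with a 95% interval of -0.56 to 0.26. Cox5a stood at 12.21, 12.16 and 9.20 across wild type, against 12.18, 12.33 and 12.15 across the mutants, and its difference moved from 1.03 to 0.03 without that array. Cox7a2, the general form of subunit VIIa, stood at 8.07, 8.07 and 4.38 across wild type, against 7.48, 8.04 and 6.82 across the mutants, so it was low on wild-type array 3 and less so on mutant array 3. Its difference was 0.60 (SE 0.98), and -0.62 without wild-type array 3.

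The negative extremes of complex IV were forms with restricted expression. Cox6b2, known as the testis form of subunit VIb, stood at 6.37, 5.89 and 6.85 across wild type, against 4.88, 5.64 and 6.20 across the mutants, in the lower part of the detected range, with means of 6.37 ± 0.48 in wild type and 5.57 ± 0.66 in mutant (mean ± SD, n = 3). Its difference was -0.80 (SE 0.40), the most negative of all members, with a 95% interval of -1.74 to 0.14 and limma adjusted p = 0.791, and -0.59 without wild-type array 3. Cox6b1, the general form, differed by -0.26 (SE 0.27). Cox4i2, a form of subunit IV known from lung and from low oxygen, stood at 4.75, 4.92 and 6.66 across wild type, against 4.88, 4.94 and 5.68 across the mutants, higher on both bo12 arrays than on the other 4. It was detected on 5 arrays, and its bo20 values lay near the lowest value of the arrays, 4.16. Its difference was -0.27 (SE 0.53), and 0.36 without wild-type array 3.

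Subunits typical of heart and skeletal muscle were measured in the peels. Cox6a2, the muscle form of subunit VIa, stood at 11.16, 11.17 and 10.06 across wild type, against 10.29, 11.64 and 11.54 across the mutants, with a difference of 0.36 (SE 0.47), and 0.01 without wild-type array 3. Cox8b, the muscle form of subunit VIII in the mouse, stood at 9.15, 9.09 and 8.34 across wild type, against 7.83, 9.76 and 9.65 across the mutants, with a difference of 0.22 (SE 0.54), and -0.04 without that array. Cox7a1, the muscle form of subunit VIIa, stood at 7.42, 6.89 and 7.04 across wild type, against 6.001, 7.02 and 7.36 across the mutants, with a difference of -0.32 (SE 0.38). Mutant array 1 was the lowest array for Cox8b and Cox7a1, and wild-type array 3 for Cox6a2, so the groups overlapped in all 3 genes.

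The general form of subunit VIa, Cox6a1, did not follow this order, at 13.25, 13.05 and 13.63 across wild type, against 13.18, 13.19 and 13.33 across the mutants and a difference of -0.08 (SE 0.23). Beside the muscle forms, the 11 skeletal muscle markers, all measured, averaged 12.65, 12.87 and 11.07 across wild type, against 12.56, 13.15 and 12.49 across the mutants. All 11 markers had a difference above 0, with a median of 0.46, which became 0.04 when wild-type array 3 was left out, and 0 passed the test. The part of muscle RNA in the values of the muscle forms was not tested.

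**Figure D3:**
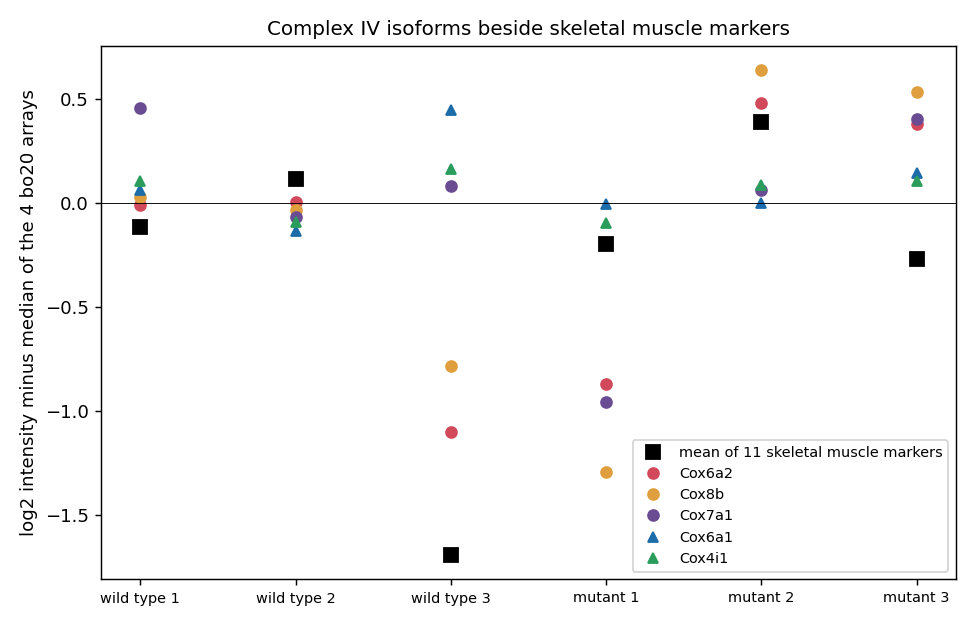
Log2 intensity of Cox6a2, Cox8b and Cox7a1 (circles), of Cox6a1 and Cox4i1 (triangles) and of the mean of 11 skeletal muscle markers (squares) on each array, minus the median of the 4 bo20 arrays. Each muscle form spans over 1 log2 unit across the arrays, more than Cox6a1 or Cox4i1.

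Complex V, the ATP synthase, has a rotating part driven by a ring of c subunits and a catalytic head of alpha and beta subunits. None of its 16 measured members passed the test, with 9 differences above 0 and 7 below. Atp5b, the catalytic beta subunit, stood at 14.20, 14.33 and 14.43 across wild type, against 14.07, 14.26 and 14.41 across the mutants, near the top of the range of the arrays, with a difference of -0.08 (SE 0.20). Atp5c1, the gamma subunit of the central stalk, stood at 12.33, 12.19 and 13.06 across wild type, against 12.40, 12.28 and 12.63 across the mutants, with a difference of -0.09 (SE 0.28), and Atp5d, the delta subunit of the same stalk, differed by 0.16 (SE 0.27). Without wild-type array 3 these became 0.17 and -0.08. The groups overlapped in all 3.

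Atp5a1, the alpha subunit, was low on both bo12 arrays. It stood at 8.87, 8.76 and 4.68 across wild type, against 8.94, 9.03 and 5.28 across the mutants, and wild-type array 3 did not detect it. The difference was 0.31 (SE 1.41), with an interval of -3.01 to 3.63 that does not exclude large changes in either direction, and -1.08 without wild-type array 3. Atp5e, the epsilon subunit, was also low on both bo12 arrays, at 6.99, 6.59 and 4.58 across wild type, against 5.94, 6.97 and 4.94 across the mutants, and differed by -0.10 (SE 0.74), or -0.87 without that array. Atp5e was detected on 5 of the 6 arrays. Within bo20 alone, the differences of Atp5a1 and Atp5e were 0.17 and -0.34.

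The positive extremes of complex V were Atp5mpl, Atp5o and Atp5g3. Atp5mpl, a small membrane subunit, stood at 12.93, 12.89 and 9.88 across wild type, against 12.66, 12.99 and 13.05 across the mutants. Its difference was 1.000 (SE 0.79), and -0.01 without wild-type array 3. Atp5o, the OSCP subunit that joins head and stator, stood at 13.37, 13.13 and 10.43 across wild type, against 13.24, 13.34 and 13.26 across the mutants, and its difference moved from 0.97 to 0.03. Atp5g3, 1 of the genes for the c ring, stood at 13.96, 14.27 and 12.06 across wild type, against 14.45, 14.43 and 14.16 across the mutants, with a difference of 0.92 (SE 0.55), and 0.21 without that array. In each of the 3 genes wild-type array 3 alone was low.

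Atp5g2, another gene for the c ring, was the member with the smallest unadjusted p, 0.0601. It stood at 10.82, 10.53 and 10.64 across wild type, against 9.89, 9.87 and 10.53 across the mutants, with means of 10.66 ± 0.15 in wild type and 10.10 ± 0.37 in mutant (mean ± SD, n = 3). Mutant arrays 1 and 2 lay below every wild-type array, and mutant array 3 was level with wild-type array 2. The difference was -0.56 (SE 0.25), with a 95% interval of -1.16 to 0.03 and limma adjusted p = 0.791. The remaining negative extremes of complex V were Atp5j2, the f subunit, with -0.29 (SE 0.24), and Atp5j, coupling factor 6, with -0.11 (SE 0.20).

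Assembly factors insert cofactors and join subunits and are not part of the finished complex. Sdhaf2, which attaches flavin to complex II, stood at 8.06, 7.73 and 5.14 across wild type, against 8.09, 7.89 and 7.32 across the mutants, with a difference of 0.79 (SE 0.74), and -0.13 without wild-type array 3. Ndufaf2, which acts late in the assembly of complex I, stood at 9.34, 8.90 and 6.32 across wild type, against 8.97, 8.88 and 8.81 across the mutants, with a difference of 0.71 (SE 0.73), and -0.22 without that array. Ndufaf5 was at the other end, with 7.58, 7.87 and 8.50 across wild type, against 7.32, 7.45 and 8.02 across the mutants and a difference of -0.39 (SE 0.32), or -0.13 without that array. The 11 members of this group kept within 0.5 log2 units of 0 without wild-type array 3. Ndufs5-ps differed by -0.23 (SE 0.28), and a probe for a pseudogene may also bind transcripts of its parent gene, so its value is uncertain.

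Within the bo20 prefix, 2 wild-type and 2 mutant arrays, levels varied little. The range over these 4 arrays had a median of 0.365 log2 units for members and 0.474 for all genes, and was under 1 in 77 of 84 members (91.7%) and 90.8% of all genes. The median mutant minus wild-type difference was -0.07, against -0.01 over all genes, with 28 members above 0 and 56 below. By complex it was -0.10, -0.06, -0.01, -0.10 and -0.05 for I to V. A limma fit of these 4 arrays alone called 118 probes (0.643%) and 0 members, the smallest adjusted p of a member being 0.165.

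In this comparison 5 members had an unadjusted p under 0.05, all lower in the mutant, against 12.2% of all genes. They were Atp5g2, Cox6b2, Ndufb10, Ndufa3 and Ndufb3, with log2 differences of -0.79, -0.87, -0.55, -0.62 and -0.55. The groups of 2 did not overlap in 29 members (34.5%), 10 higher and 19 lower in the mutant, against 44.8% of all genes, 21.2% higher and 23.6% lower. The share of members separated was thus below that of all genes.

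Within the bo12 prefix there was 1 array in each group, so the differences have no replicate check. Their median over the members was 0.04, against -0.19 over all genes, and ran by complex -0.09, 0.43, -0.13, 0.32 and 0.21 for I to V. They spread from -0.99 for Cox4i2 to 5.13 for Cox6c, where within bo20 the spread was -0.87 to 0.44. A difference under 0.5 log2 units in size was found for 51 members (60.7%) in bo12 and 77 (91.7%) in bo20, against 46.0% and 86.7% of all genes. In Cox6c the mutant effect was 5.13 in bo12 and -0.10 in bo20.

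**Figure D4:**
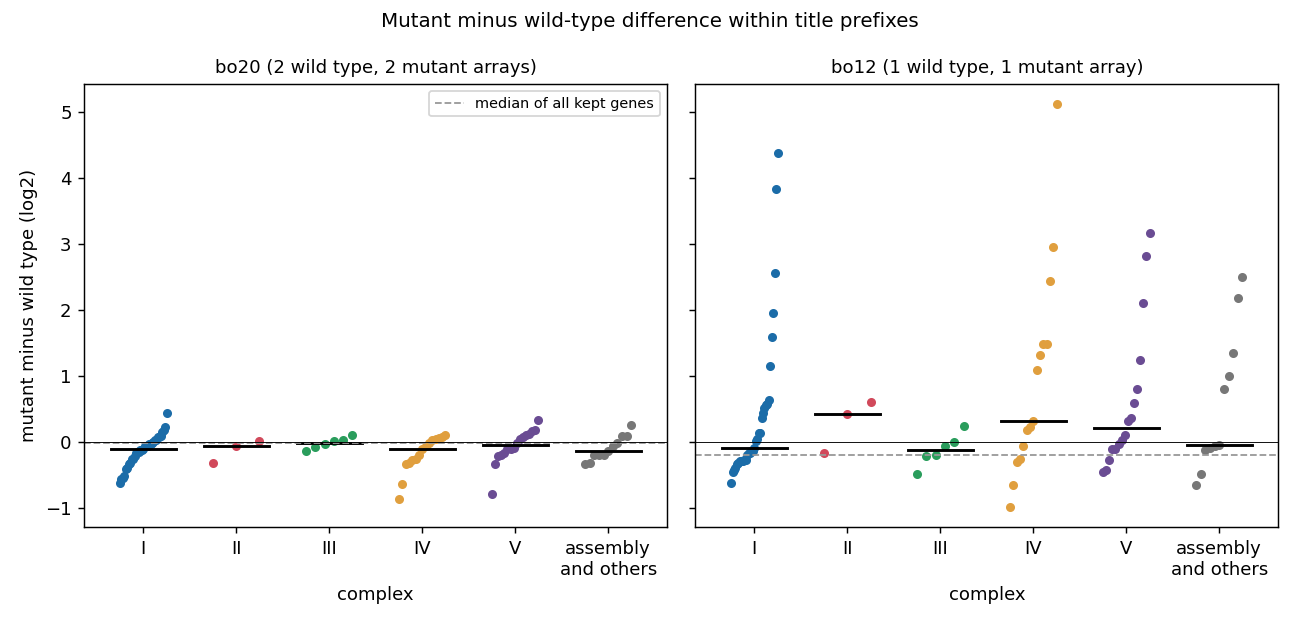
Mutant minus wild-type log2 difference of each member (vertical axis) by complex (horizontal axis and colour), within bo20 (left panel, 2 against 2 arrays) and within bo12 (right panel, 1 against 1). Black bars give the median of each set of members, and the dashed line gives the median of all genes. The bo20 values lie between -0.87 and 0.44 and the bo12 values between -0.99 and 5.13.

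By limma's interaction of group and prefix, with adjustment over all probes, 16 members (19.0%) passed the threshold, against 1152 of 11354 genes (10.1%) and 1846 probes (10.1%). In each of the 16 the bo12 difference was the more positive and wild-type array 3 was the lowest of the 6 arrays. They were 5 subunits of complex I, 5 genes counted in complex IV, 3 subunits of complex V and 3 assembly factors. Cox7a2l was among the 5 counted in complex IV, and 0 were counted in complexes II and III. Since bo12 has 1 array in each group, the spread behind this test comes from the bo20 arrays alone. The test thus restates that wild-type array 3 was low in these genes and does not show that the mutant effect differs between the prefixes, which cannot be told apart from the particular arrays.

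Wild-type array 3 lay over 2 log2 units below the median of the other arrays in 16 members, or 19.0%, against 8.04% of all genes. By complex these were 5 of 33 in complex I, 1 of 3 in complex II, 0 of 6 in complex III, 3 of 15 in complex IV, 5 of 16 in complex V and 2 of the 11 other genes. It lay over 1 unit below in 23 members, against 16% of all genes, and 21 of these 23 had a mutant minus wild-type difference above 0. A low wild-type array 3 lowers the wild-type mean, so this direction follows largely from how the 23 were picked. Mutant array 3 lay over 2 units below in 2 members, or 2.38%, against 0.81% of all genes.

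The 2 members low by over 2 units on both bo12 arrays were Ndufb9 and Atp5a1, singled out after their values were seen. Ndufb9, an accessory subunit of complex I, stood at 8.34, 7.82 and 4.41 across wild type, against 7.45, 8.06 and 4.55 across the mutants, and neither bo12 array detected it. Its difference was -0.17 (SE 1.25), and -1.43 without wild-type array 3. The mitochondrial transcript mt-Atp6, which encodes the a subunit of the ATP synthase and was the 1 mitochondrially encoded subunit measured, had the same order, with 11.66, 11.57 and 6.01 across wild type, against 11.76, 11.24 and 6.38 across the mutants. Its difference was 0.05 (SE 1.92), with an interval of -4.47 to 4.57, and -1.81 without wild-type array 3. In these 3 transcripts the prefix, not the group, separated the arrays. The cause was not tested.

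Different probes of a gene did not always follow each other on wild-type array 3. Of the 22 members with several detected probes, 6 had a pair of probes that deviated there by amounts more than 2 log2 units different, beside 678 of 3551 genes (19.1%). On mutant array 3 this held for 0 members and 0.929% of genes. Ndufs4, an accessory subunit of complex I whose loss causes Leigh syndrome in humans, had 4 probes. Its brightest, ILMN_1234521, read 11.45, 11.40 and 11.31 across wild type, against 11.07, 11.35 and 11.45 across the mutants. ILMN_2640944 read 10.68, 10.58 and 6.41 across wild type, against 10.41, 10.48 and 10.16 across the mutants, and ILMN_2900025 read 10.06, 10.34 and 5.74 across wild type, against 10.30, 10.27 and 9.86 across the mutants. The first was flat, and the other two were over 3 units lower on wild-type array 3.

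The mutant minus wild-type difference of Ndufs4 was -0.09 by its brightest probe and 1.13 and 1.43 by these 2, and -0.13, -0.28 and -0.06 without wild-type array 3. Atp5pb, subunit b of the ATP synthase stator, had a flat probe with 10.81, 10.49 and 10.92 across wild type, against 10.85, 10.81 and 11.02 across the mutants. Its probe ILMN_1249817 read 10.64, 10.68 and 6.93 across wild type, against 10.89, 10.94 and 10.55 across the mutants. In Atp5o the brightest probe was the low one, while ILMN_2917540 read 9.58, 8.90 and 9.31 across wild type, against 9.09, 9.35 and 9.72 across the mutants. Ndufa5, Ndufb10 and Ndufaf5 were the other 3 genes, and the positions of the probes on the transcripts are not used here.

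**Figure D5:**
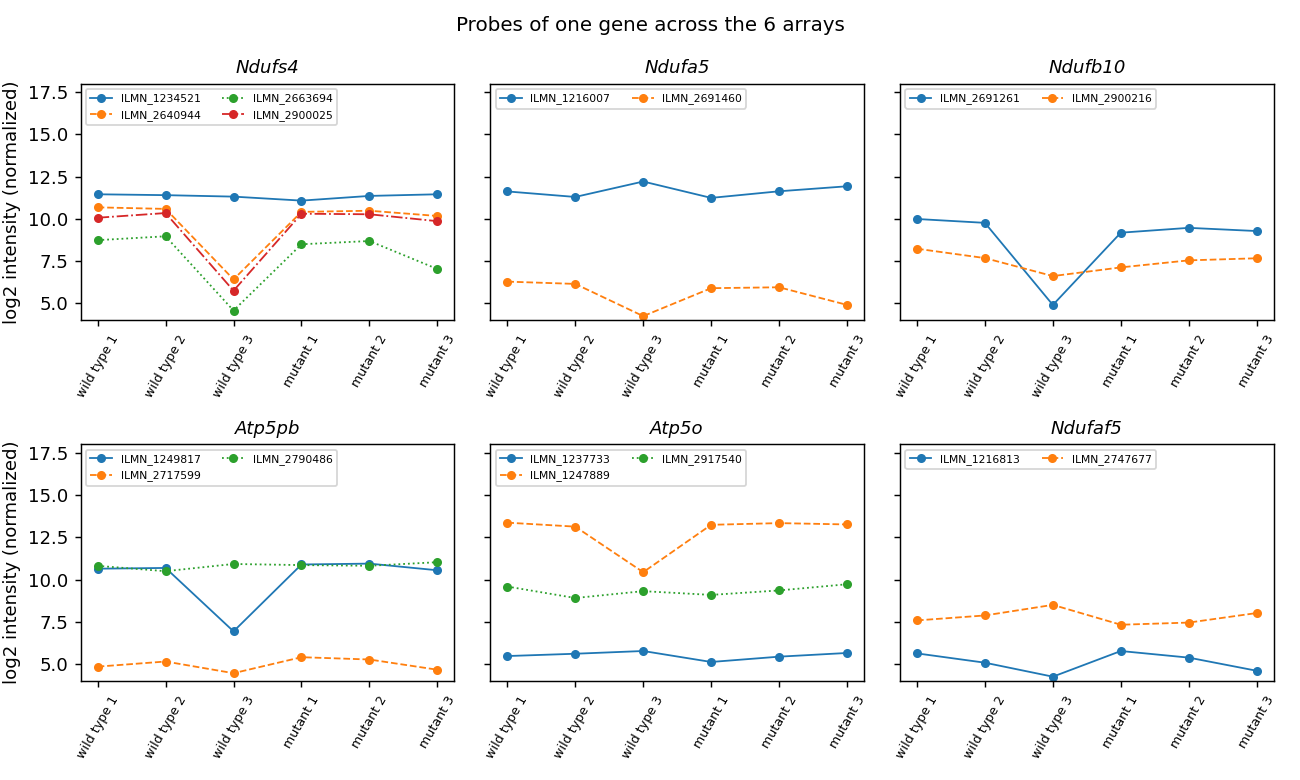
Log2 intensity of each detected probe of the 6 members whose probes disagree on wild-type array 3, by array (horizontal axis, lines join the values of 1 probe). In Ndufs4, 3 of 4 probes drop on wild-type array 3 and 1 does not.

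Differences were also set beside the presence of the NRF1 motif, with no test. The median was -0.08 in the 19 genes with a match, of which Ndufb4, Sdhd, Cox6a1 and Atp5c1 are printed above, and 0.00 in the 53 genes with a window and no match. Without wild-type array 3 the medians were -0.01 and -0.06, so their order turned. The transcript of the factor itself, Nrf1, stood at 9.38, 9.09 and 9.83 across wild type, against 8.90, 9.02 and 9.09 across the mutants, with every mutant array below every wild-type array. Its difference was -0.43 (SE 0.25), with limma adjusted p = 0.791, and -0.22 without wild-type array 3. Separation with the mutant wholly lower was found in 8.24% of all genes.

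Other mitochondrial genes were measured beside the chain, and 0 of them passed the adjusted test. Cycs, cytochrome c, the carrier between complexes III and IV, stood at 10.27, 10.42 and 10.46 across wild type, against 10.73, 10.78 and 11.01 across the mutants, every mutant array above every wild-type array. Its difference was 0.45 (SE 0.20), with a 95% interval of -0.01 to 0.92 and limma adjusted p = 0.791, and 0.49 without wild-type array 3. Bcs1l, which inserts the iron-sulfur protein into complex III, stood at 8.71, 8.54 and 9.09 across wild type, against 7.94, 8.09 and 8.20 across the mutants, every mutant array below every wild-type array. Its difference was -0.71 (SE 0.23), with an interval of -1.24 to -0.17 and limma adjusted p = 0.695, and -0.54 without wild-type array 3. Neither gene was low on wild-type array 3.

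The list medians below ran from -0.04 to 0.27. Subunits and carriers named otherwise, 8 measured of which 2 are members, had a median of -0.04, with 2 above 0 and 6 below. The 38 assembly factors, of which 9 are members, had 0.01 with 19 on each side. The 14 genes of the citric acid cycle and pyruvate dehydrogenase had 0.21, and 0.07 without wild-type array 3. Cs, citrate synthase, was among them, with 10.46, 10.46 and 6.92 across wild type, against 10.45, 10.49 and 10.54 across the mutants, low on wild-type array 3 alone. Regulators of mitochondrial biogenesis, 16 measured, had 0.07, and import proteins and carriers, 21 measured, had 0.27, or 0.00 without that array. Tfam, which helps package and transcribe mitochondrial DNA, differed by 0.59 (SE 0.35), and 0.21 without it.

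Ribosomal proteins gave a second pair of large groups. The 71 mitochondrial ribosomal proteins had a median of -0.06, with 28 above 0 and 43 below, and 0.00 without wild-type array 3. The 53 cytosolic ones had -0.03, with 23 above and 30 below, and -0.01.

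Markers of other cell types moved with array and group as follows. Dermal fibroblast markers had a median difference of 0.49, with 6 of 7 above 0, and 0.08 without wild-type array 3, where their mean level was 9.99 against 11.4 to 12.01 elsewhere. Macrophage markers had 0.65, with 6 of 6 above 0, and 0.48 without it, and their mean level was 7.03 to 7.63 in wild type and 7.91 to 8.27 in mutant. Of these 6, 0 passed the adjusted threshold with every array and 1 did without wild-type array 3. Erythroid markers had 0.04, endothelial -0.12, melanocyte -0.08 and adipocyte -0.04, which became -0.03, 0.21, -0.47 and 0.14 without that array. Keratinocyte markers had -0.16, with 1 of 6 above 0, and -0.17 without it. Their part in the values of the chain was not tested.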

How the data were processed

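The authors deposited raw bead intensities per probe, with a fraction in columns headed PValue, and a table of log2 values, per the file headers. BeadStudio is named, with no version, per the submitters' processing notes. The fraction rises with intensity, so despite its header it was taken to be 1 minus a detection p-value and is called the detection score here. The authors' log2 table was recomputed from the raw intensities, as log2 intensity minus the array's 75th percentile and then minus each probe's median over the arrays, with 100% of values within 0.001, so its scale, centring and direction are known. Column medians in it stood at 0.26, -0.01 and 0.33 for wild type and -0.13, -0.13 and 0.01 for mutant. No array version, probe position or genome build of the arrays is given in the sources used here, and RefSeq (GRCm38.p6) served only for names and promoter windows. No pair of arrays shared more than 0.517% of equal raw intensities.

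Intensities were background-corrected with limma 3.58.1 in R 4.3.3 (nec, normexp with offset 16, control beads estimated from detection), log2-transformed and quantile-normalized. Probes detected on at least 3 of 6 arrays were kept (18358 of 45281). Of all probes, 35784 carried 1 symbol, 0 several and 9497 none, and names were updated through Entrez identifiers (28620) or accessions (2637), the platform's symbol being kept for 4527. Symbols of 85 matching genes became 84 after updating. A gene is represented by its kept probe with the highest mean. Mutant and wild type were compared by lmFit and eBayes, two-sided, Benjamini-Hochberg over all kept probes, threshold 0.05, tested on simulated data. Precision is limited by 3 arrays per group. Replicate numbers come from the labels, and deviations of same-numbered arrays from their group means correlated at 0.27, 0.462 and 0.538. These 3 values are not independent and do not establish that the numbers pair the arrays. The reported comparison has no block, and the block is an alternative. Alternatives covered background correction, normalization, the authors' table, filters, the variance estimate, array weights, blocks, left-out arrays and the mean of a gene's probes.

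The members and lists were chosen with earlier results of these data known. Named were the 3 most positive and 3 most negative members of each complex, set core and isoform genes, members whose probes disagreed and, in other lists, genes among the 4 with the smallest p. Ndufb9, Atp5e, Cox6b1 and the assembly factors described were picked with their values known.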

Additional observations from a re-analysis of the deposited data

Results flagged for a closer look

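In 16 members the mutant minus wild-type log2 difference was more positive within bo12 than within bo20, past the threshold of limma's interaction test over all 18358 probes. The bo12 minus bo20 value was 5.23 for Cox6c, 4.93 for Ndufb10, 3.73 for Ndufs3 and 3.25 for Atp5mpl. It was 2.89 for Cox5a, 2.79 for Atp5o, 2.75 for Cox7a2, 2.69 for Ndufaf2, 2.42 for Ndufb5 and 2.08 for Sdhaf2. The smallest were 1.93 for Ndufb2, 1.78 for Atp5g3, 1.62 for Ndufa1, 1.44 for Cox7b, and 1.36 for both Sdhaf1 and Cox7a2l. Each of the 16 had its lowest value of the 6 arrays in wild-type array 3, and bo12 holds 1 array in each group, so the values rest on that array and do not show a mutant effect that differs between the prefixes. Wild-type array 3 did not detect Ndufb10, Cox7a2, Ndufb2 and Cox7b, so their values rest on a reading at background. The cause was not tested.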

How the results depend on the processing

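Under every alternative run, 0 members passed the adjusted threshold. The replicate block, which pairs arrays of the same number, called 0 probes and 0 members (smallest adjusted p of a member 0.535) and changed no call. Over all probes, the count of calls went from 0 to 1 with no background correction, 6 with the authors' table, 129 with array weights, 48 with the prefix as a block, 118 with the bo20 arrays alone (chosen after seeing the data), and 0 to 49 with 1 array left out, the 49 without wild-type array 3. Median scaling put the median of all genes at 0.43, the members at 0.43, and complexes I to V at 0.39, 0.47, 0.40, 0.52 and 0.48, so relative to all genes the members did not shift. The authors' table gave 0.13 for the members, 0.11, 0.16 and 0.14 for complexes I to III, and 0.01 for all genes. Complex IV turned to -0.061 with array weights and -0.10 in bo20 alone, and with 1 array left out ran from -0.037 without wild-type array 3 to 0.20 without mutant array 1. Complex V, at 0.08 in the reported comparison, turned to -0.055 with array weights and -0.05 in bo20 alone. Complex II became 0.15 with the mean of a gene's probes and 0.21 when grouped by symbol prefix alone. Members with separated groups, 0 in the reported comparison, numbered 17 (20.2%) with median scaling against 26% of all genes, 7 (8.33%) with the authors' table against 1992 of 11354 genes, 1 (1.09%) without the detection filter against 12.6%, 29 (34.5%) in bo20 alone against 44.8%, and 1 to 18 (1.19% to 21.4%) with 1 array left out against 17.6% to 32.6%. The difference between prefixes fell from 1846 to 897 probes and from 16 to 10 members with median scaling. Of 446 single-gene values under alternatives, 0 passed the threshold. Detection limits 14 members found on fewer than 6 arrays, 13 of them undetected in wild-type array 3. The causes of these changes were otherwise not tested.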
